A study of Mus musculus with 11 samples.

Results

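The replication-dependent histone genes were followed through a map of the DNA that touches the nuclear lamina, the protein mesh under the nuclear envelope, as read through its filament protein lamin B1. The members were all rows of the deposited table whose symbol begins with Hist1h, Hist2h, Hist3h or Hist4h, which gave 67 of 21534 gene regions. They carry 64 symbols, since Hist1h2ao, Hist1h2br and Hist2h3c1 each occupy 2 rows, and all 64 symbols matched the RefSeq gene table. Of the 67 rows, 65 are annotated as protein-coding and 2, Hist3h2bb-ps and Hist1h2al, as transcribed pseudogenes. By type, 6 rows are linker histone H1, 18 are H2A, 19 are H2B, 11 are H3 and 13 are H4. On chromosome 13 lie 54 of them, on chromosome 3 lie 9, on chromosome 11 lie 3 and on chromosome 6 lies 1.

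Replication-dependent histone genes make the bulk of the core histones H2A, H2B, H3 and H4, which form the nucleosome, and of linker histone H1, which binds the DNA where it enters and leaves the nucleosome. They are short and without introns, they sit in clusters, and their messenger RNAs end in a stem-loop instead of a poly(A) tail. Their output rises with DNA replication and falls when cells leave the cycle, as precursors of oligodendrocytes do when they differentiate, and their clusters are the sites at which nuclear histone locus bodies assemble.

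Contacts were measured by DamID-seq, in which the bacterial DNA adenine methyltransferase Dam is fused to LMNB1 and marks DNA near the lamina, while untethered Dam marks DNA that a free enzyme can reach. Primary oligodendrocyte precursor cells came from the cortex of wild-type (WT) C57BL/6 mice at postnatal day 7. The cells were transduced with Dam-LMNB1 or Dam on a lentiviral vector, a step given as 1 day, and all groups share this. They then spent 72 h in medium that keeps precursors dividing (here OPC) or in medium that drives them to differentiate (here OL, for oligodendrocyte). The sources used here do not give the promoter that drives either construct. The groups were OPC Dam-LMNB1 with 3 libraries called 8, 9 and 10, OPC Dam with 2, OL Dam-LMNB1 with 3 called 18, 19 and 20, and OL Dam with 3. Each deposited score sets 1 Dam-LMNB1 library against all Dam libraries of the same condition taken as a pool, and values above 0 are taken as methylation by Dam-LMNB1 in excess of that by Dam. The log base of the scores is not given, so differences are stated in score units and never as folds. The read depth is unknown.

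A score belongs to a gene together with its flanks, so that gene body, UTRs and neighbouring sequence share it. To within 100 bp, 63 of the 67 histone regions reached 10000 bp upstream of their gene and 60 reached 2000 bp downstream. The histone regions had a median width of 12.5 kb against 26.3 kb for all regions. Because the genes are packed closely, 65 of the 67 regions overlapped another histone region, and the 67 collapsed to 16 separate stretches, the longest with 15 members. Neighbouring members are therefore not independent measurements. Several members are near-identical copies of each other, among them the 2 rows each of Hist1h2ao, Hist1h2br and Hist2h3c1, and reads could have been split or lost between such copies, so their values are uncertain.

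The members fell into 8 blocks, a block being a run of members whose starts lie within 100 kb of the next (all coordinates mm10). Chromosome 13 held 5 of them. Block 1 spanned chr13:21706412-21843575 with 18 members, block 2 chr13:22025821-22052949 with 5 and block 3 chr13:23521044-23772386 with 28. Block 4, chr13:23924462-23944156, held the testis types Hist1h2aa and Hist1h2ba, and block 5, chr13:51198084-51213066, held the pseudogene Hist1h2al alone. The smaller clusters were chr3:96209916-96273317 with the 9 Hist2 members, chr11:58938911-58964512 with the 3 Hist3 members and chr6:136801993-136814431 with Hist4h4.

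The promoters of 7 members on which the results below turn are printed first. They are a small part of the sequence that each score covers. Each line gives the 150 bases before the RefSeq start (build GRCm38.p6, the same assembly as mm10), 5′ to 3′ on the gene's strand. Capitals mark matches, on either strand, to the TATA box (TATAAA), the CCAAT box (CCAAT), the octamer (ATGCAAAT) and the AC box (AAACACA). Hist1h4f, on the minus strand at chr13:23551669-23551818, had the lowest score of all members.
Hist1h4f: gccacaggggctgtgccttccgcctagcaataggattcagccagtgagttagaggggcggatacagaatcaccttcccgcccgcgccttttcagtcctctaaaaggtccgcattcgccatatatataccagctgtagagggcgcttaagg
Hist1h3e (minus strand, chr13:23562386-23562535), Hist1h2bg (plus strand, chr13:23571250-23571399) and Hist1h2ad (plus strand, chr13:23574231-23574380) were the members whose scores rose most in OL.
Hist1h3e: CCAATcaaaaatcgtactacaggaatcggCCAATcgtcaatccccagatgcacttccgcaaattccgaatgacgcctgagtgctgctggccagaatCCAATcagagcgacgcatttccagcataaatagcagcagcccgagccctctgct
Hist1h2bg: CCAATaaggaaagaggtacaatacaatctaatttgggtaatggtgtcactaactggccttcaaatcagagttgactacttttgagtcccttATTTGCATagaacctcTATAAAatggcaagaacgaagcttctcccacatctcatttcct
Hist1h2ad: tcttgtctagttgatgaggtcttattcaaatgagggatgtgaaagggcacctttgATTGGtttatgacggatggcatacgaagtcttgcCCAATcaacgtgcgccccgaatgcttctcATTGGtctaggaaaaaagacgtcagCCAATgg
Hist3h2ba (plus strand, chr11:58948761-58948910) rose outside chromosome 13.
Hist3h2ba: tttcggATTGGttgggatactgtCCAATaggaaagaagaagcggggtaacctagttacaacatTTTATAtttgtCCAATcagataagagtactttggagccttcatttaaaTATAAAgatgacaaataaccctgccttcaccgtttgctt
Hist1h1b (minus strand, chr13:21780626-21780775) and the testis gene Hist1h2aa (plus strand, chr13:23934287-23934436) fell in OL.
Hist1h1b: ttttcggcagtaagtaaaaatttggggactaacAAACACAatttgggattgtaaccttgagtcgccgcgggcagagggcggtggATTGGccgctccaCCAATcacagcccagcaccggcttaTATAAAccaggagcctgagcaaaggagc
Hist1h2aa: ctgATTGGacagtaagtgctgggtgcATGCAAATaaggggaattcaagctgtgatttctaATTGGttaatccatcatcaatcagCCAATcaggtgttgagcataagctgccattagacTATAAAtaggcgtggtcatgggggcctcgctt

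A RefSeq promoter lay inside the region of 57 of the 67 rows, and the 250 bases before the start were searched on both strands. CCAAT was found in 47 of them (82.5%), against 33.8% of the 32851 promoters in the RefSeq table searched over the same length, and TATAAA in 28 (49.1%) against 12.4%. Matches of different motifs can share end letters. CCAAT was in 16 of 16 H2A and 15 of 15 H2B promoters, and in 3 of 12 H4 promoters. The octamer, known as an element of H2B promoters, was in 7 of 16 H2A and 6 of 15 H2B promoters and in none of the H1, H3 or H4 promoters, against 1.60% of all promoters. Some H2A and H2B genes start close together on opposite strands, so their searched windows overlap and the same match can count for each gene. Hist1h2ah and Hist1h2bk, Hist1h2ae and Hist1h2bg, and Hist1h2aa and Hist1h2ba are such pairs with an octamer counted for each gene. The counts therefore do not tell how many separate octamers these genes have. The AC box, known from H1 promoters, was in 5 of 6 H1 promoters and in 6.25% of all promoters. A match describes the sequence only, and its absence says only that these letters are not in the window.

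All histone regions lay below 0 in both conditions. In OPC 67 of 67 members passed the test below 0 (limma, two-sided, Benjamini-Hochberg adjusted p under 0.05 over all regions) and 0 above, where 71.4% of all regions were called below and 25.5% above. In OL it was again 67 below and 0 above, against 70.9% and 25.9% of all regions. The members' largest limma adjusted p was 4.56e-04 in OPC, for Hist1h2ba. Every score of the 67 regions in the 6 libraries was negative, from −3.69 for Hist1h4f in OPC library 8 to −0.40 for Hist1h2ba in OPC library 9. Counted by 1 member per separate stretch, 16 of 16 were below 0 in each condition.

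The histone regions also lay low among all regions, a set that includes those above 0. The median score of the histone regions was −2.37 in OPC against −1.54 over all regions, and −2.26 in OL against −1.47. In OPC 23 of the 67 members were in the lowest 10% of all regions and 51 in the lowest 25%, and in OL 27 and 55. The SD over the 67 members was 0.46 in OPC and 0.44 in OL, against 1.57 and 1.51 over all regions. Because 65 of the 67 regions overlap another member, this is not the spread of independent regions. The means of the 16 stretches ran from −2.77 to −0.63 in OPC and from −2.91 to −1.13 in OL. Regions of like width were higher at the median, but they are a mixed class. Between blocks 2 and 3, for example, 36 vomeronasal receptor regions (median width 12.9 kb) had a median of 1.87 in OPC. There, 40 tRNA gene regions (12.1 kb) had −2.09. The other 3854 regions under 14 kb, the width class of 62 histone regions, had a median score of 0.25 in OPC and 0.33 in OL, and 46.8% and 46.4% of them were called below 0.

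**Figure D1:**
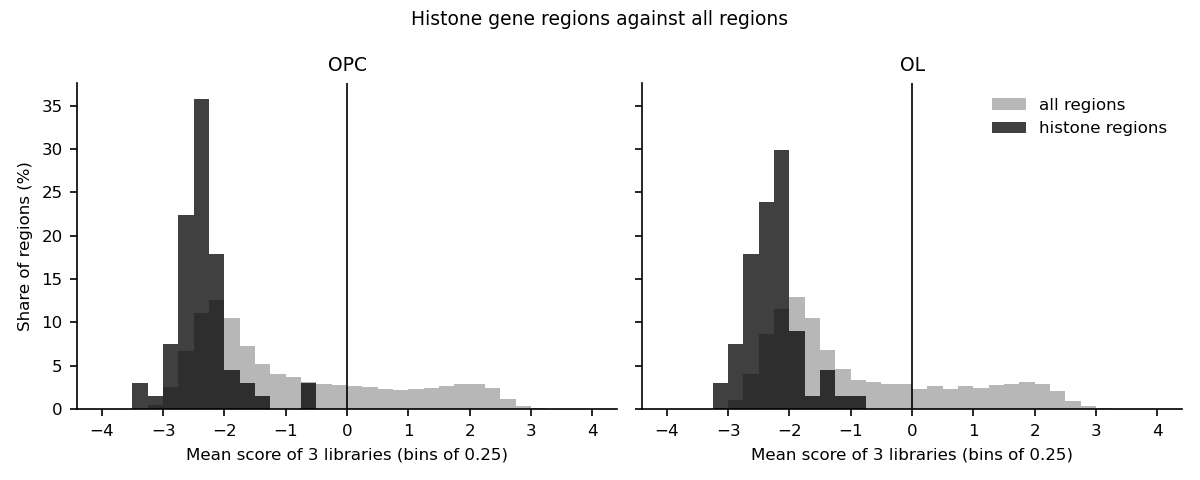
Share of regions (%, vertical axis) by mean score of the 3 libraries (horizontal axis, authors' units, bins of 0.25) in OPC and OL, for all 21534 regions (grey) and the 67 histone regions (black). The histone regions form 1 narrow peak with medians of −2.37 and −2.26, and none lies above 0, where the second hump of all regions sits.

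By the mean over the 6 libraries the lowest members were 3 neighbours in the middle of block 3, which code for an H4, a linker H1 and an H2B. In OL alone Hist1h4k (−2.95) and Hist1h2ak (−2.92) of block 1 lay below the third of them, Hist1h2bh (−2.90). Hist1h4f (chr13:23549286-23561643) scored −3.69, −3.35 and −3.19 in OPC (libraries 8, 9 and 10, the order used throughout) and −3.31, −3.31 and −3.06 in OL (libraries 18, 19 and 20). Its means of −3.41 ± 0.26 and −3.23 ± 0.14 (SD, n = 3) were the 6th and 5th lowest of all 21534 regions. The 2 conditions overlapped.

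Hist1h1d (chr13:23545032-23557807), a linker histone gene whose region overlaps that of Hist1h4f, scored −3.47, −3.39 and −3.00 in OPC and −3.08, −3.37 and −3.18 in OL, and ranked 10th and 7th lowest. Hist1h2bh (chr13:23540923-23553444) scored −3.05, −3.27 and −2.97 in OPC and −2.72, −3.13 and −2.83 in OL. In neither gene were the OPC and OL libraries separated. The limma differences between OL and OPC were 0.19 ± 0.13 (SE) for Hist1h4f, 0.07 ± 0.13 for Hist1h1d and 0.20 ± 0.12 for Hist1h2bh, and none passed the test (adjusted p 0.301, 0.694 and 0.237).

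The highest scores of the members came from block 4, the 2 testis-type genes beyond block 3. Non-histone regions nearby were also high beside the other members. The 1 that overlaps block 4 scored −0.60 in OPC and −0.79 in OL, and the 4 between blocks 3 and 4 had medians of −0.78 and −0.99. The 10 in the 1000 kb after block 4 had medians of −1.43 and −1.66. Hist1h2ba (chr13:23931725-23944156), a testis-type H2B, scored −0.84, −0.40 and −0.43 in OPC and −0.88, −1.28 and −0.81 in OL. Its neighbour Hist1h2aa (chr13:23924462-23936913), a testis-type H2A, scored −0.77, −0.57 and −0.79 in OPC and −0.92, −1.69 and −1.20 in OL. These were the only 2 members above −1 in OPC, at the 66.6th and 64.7th percentile of all regions counted from the lowest. By the mean over the 6 libraries the third was the pseudogene Hist1h2al, almost level with the minus-strand row of Hist1h2br (−1.374 and −1.375), at −1.29, −1.58 and −1.69 in OPC and −1.01, −1.39 and −1.29 in OL, a region near the middle of all regions (50.7th percentile in OPC). A further testis type, the linker histone gene Hist1h1t (chr13:23685811-23698545), lies inside block 3 and scored −2.49, −2.42 and −2.38 in OPC and −2.18, −2.14 and −2.46 in OL, within the range of its block.

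Within block 1, 1 region stood above its neighbours. The minus-strand row of Hist1h2br (chr13:21804412-21820199) had a mean of −1.42 ± 0.17 in OPC and −1.33 ± 0.26 in OL, whereas the plus-strand row of the same symbol (chr13:21823743-21839530) had −2.63 ± 0.09 and −2.63 ± 0.13. The 2 rows are copies, so reads that match both cannot be placed with certainty. Whether read placement takes part in the gap between them was not tested.

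**Figure D2:**
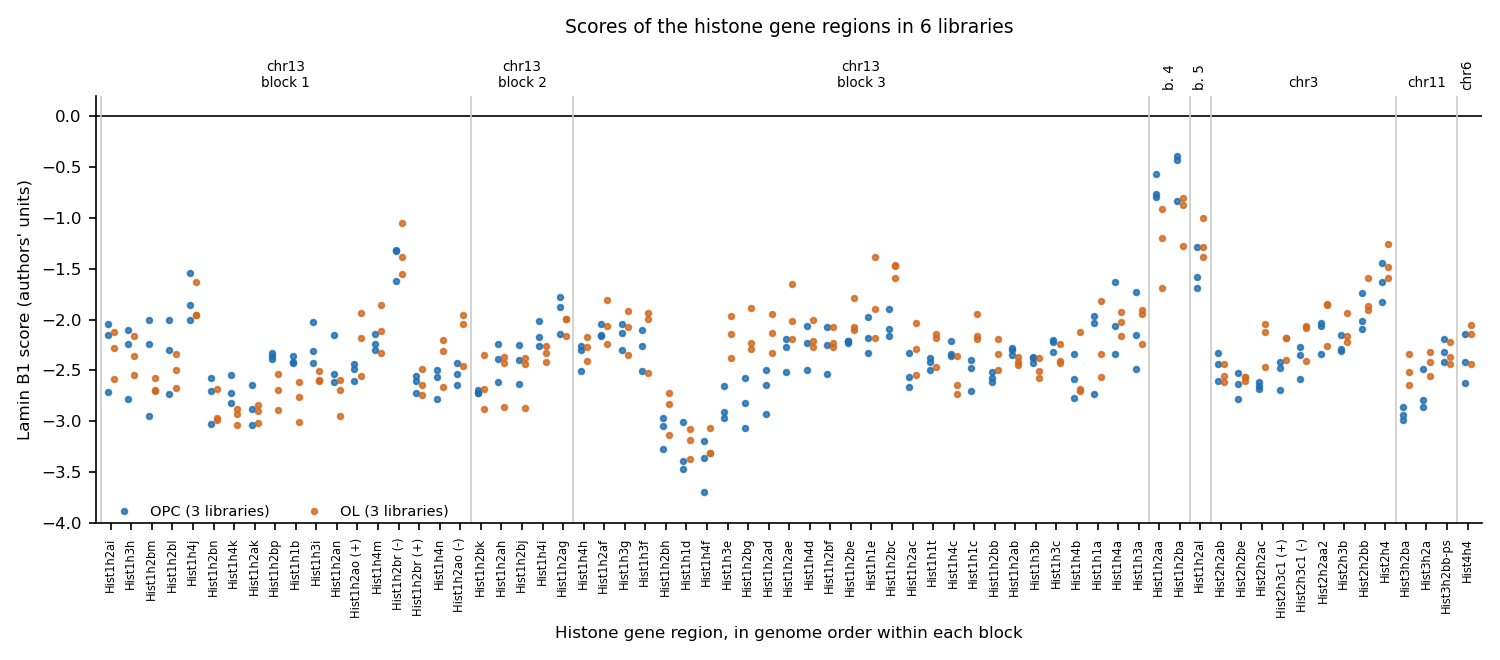
Score (vertical axis, authors' units) of each of the 67 histone regions in the 3 OPC libraries (blue points) and 3 OL libraries (orange points), in genome order within each block (horizontal axis). All points lie below 0, Hist1h4f is the lowest region, and Hist1h2aa and Hist1h2ba in block 4 are the highest.

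The histone types had similar levels. The median over members in OPC was −2.42 for H1, −2.42 for H2A, −2.40 for H2B, −2.29 for H3 and −2.30 for H4, and in OL −2.25, −2.22, −2.50, −2.18 and −2.28. Each type spanned a wider range than that. Among H1 genes the mean over the 6 libraries ran from −3.25 (Hist1h1d) to −1.99 (Hist1h1e), among H2A genes from −2.88 (Hist1h2ak) to −0.99 (Hist1h2aa) and among H2B genes from −3.00 (Hist1h2bh) to −0.77 (Hist1h2ba). H3 genes were the most even, from −2.50 (Hist1h3e) to −2.08 (Hist1h3a), and H4 genes ran from −3.32 (Hist1h4f) to −1.54 (Hist2h4). These ranges were not tested, since genes of different types share regions.

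At the ends of those ranges, the H1 gene Hist1h1e (chr13:23619777-23632558) scored −1.97, −2.18 and −2.33 in OPC and −1.39, −1.89 and −2.18 in OL. The H2A gene Hist1h2ak (chr13:21751377-21763912) scored −2.88, −2.64 and −3.03 in OPC and −3.01, −2.84 and −2.89 in OL. The H3 gene Hist1h3a (chr13:23759885-23772386) scored −2.15, −1.73 and −2.48 in OPC and −1.94, −2.24 and −1.91 in OL. In all 3 genes the 2 conditions overlapped. The H4 gene Hist2h4 (chr3:96260934-96273317), the highest of the chromosome 3 cluster, scored −1.44, −1.63 and −1.83 in OPC and −1.48, −1.60 and −1.26 in OL, also with overlap.

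The large chromosome 13 cluster and the smaller clusters had similar mean scores in 5 of the 6 libraries, with a gap of at most 0.10, and differed more in OL library 20. Averaged over its 54 members, chromosome 13 stood at −2.35, −2.34 and −2.31 in OPC, and the 13 members on chromosomes 3, 11 and 6 at −2.36, −2.38 and −2.41. In OL chromosome 13 stood at −2.19, −2.35 and −2.31 and the smaller clusters at −2.15, −2.34 and −2.10. Chromosome 13 was thus the higher in 3 of 3 OPC libraries and the lower in 3 of 3 OL libraries.

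The mean difference, chromosome 13 minus the smaller clusters, was 0.053 ± 0.043 (SD, n = 3) in OPC and −0.085 ± 0.111 in OL. No test was made, since members share regions and both clusters were read in the same 3 libraries of a condition. Without Hist1h2aa, Hist1h2ba and Hist1h2al, the members of blocks 4 and 5, the difference was −0.029 ± 0.045 in OPC and −0.151 ± 0.117 in OL. With 1 member per stretch, it was 0.290 in OPC and 0.159 in OL, which kept the direction in OPC and turned it in OL. In that setting blocks 4 and 5 kept 1 member each among 16, and so weighed more than among the 67. It was not run without these blocks. Among the alternatives run, the difference turned in OPC only where blocks 4 and 5 were left out.

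**Figure D3:**
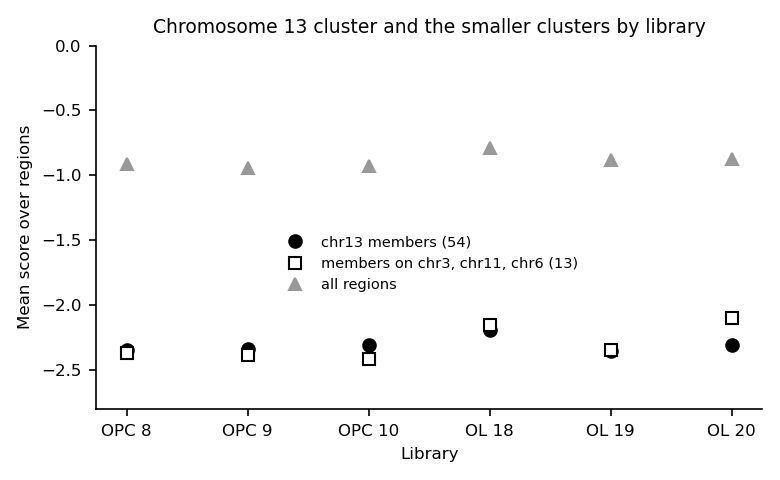
Mean score over regions (vertical axis, authors' units) in each of the 6 libraries (horizontal axis) for the 54 histone regions on chromosome 13 (filled circles), the 13 on chromosomes 3, 11 and 6 (open squares) and all 21534 regions (triangles). Circles and squares lie on top of each other near −2.3 in most libraries, and all regions average −0.94 to −0.79.

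The blocks themselves differed more than the clusters did. In OPC the block means over the 3 libraries ran from −2.65 on chromosome 11 through −2.45 in block 3, −2.39 on chromosome 6, −2.38 in block 1, −2.33 in block 2 and −2.30 on chromosome 3 to −1.52 in block 5 and −0.63 in block 4. Hist4h4 on chromosome 6 spanned −2.62 to −2.14 and overlapped all but blocks 4 and 5. The chromosome 11 libraries, at −2.74 to −2.55, all lay below those of block 3. Block 3, at −2.48 to −2.42, overlapped block 1, at −2.50 to −2.29, which overlapped block 2 at −2.40 to −2.26, and this in turn the chromosome 3 block at −2.33 to −2.27. Block 4 did not overlap any other block in OPC, where its libraries stood at −0.80, −0.49 and −0.61. In OL block 4 stood at −0.90, −1.48 and −1.004 and overlapped block 5 at −1.01, −1.39 and −1.29.

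All members on the smallest clusters are given here. Hist3h2ba (chr11:58938911-58951372), an H2B gene, scored −2.86, −2.99 and −2.94 in OPC and −2.34, −2.64 and −2.51 in OL, and each OL library was above each OPC library. Hist3h2a (chr11:58944685-58957192), an H2A gene whose region overlaps it, scored −2.49, −2.79 and −2.86 in OPC and −2.41, −2.55 and −2.32 in OL, with overlap between the conditions. The pseudogene Hist3h2bb-ps (chr11:58952048-58964512) scored −2.32, −2.20 and −2.42 in OPC and −2.44, −2.37 and −2.22 in OL. Hist4h4 (chr6:136801993-136814431), an H4 gene that lies alone, scored −2.62, −2.42 and −2.14 in OPC and −2.05, −2.44 and −2.14 in OL. The last 2 showed no separation of the conditions.

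Around blocks 1 and 2 regions with scores above 0 began nearby. The nearest before block 1 was the olfactory receptor Olfr1360 at a distance of 21.4 kb, with a mean of 0.72 ± 0.21 in OPC and 1.24 ± 0.06 in OL. The nearest after block 2 was the pheromone receptor Vmn1r188 at 24.9 kb, with 0.87 ± 0.19 and 1.01 ± 0.08. Between blocks 2 and 3 lay 36 vomeronasal receptor regions, and all 36 were called above 0 in both conditions, with medians of 1.87 in OPC and 1.99 in OL. Low scores thus flanked a receptor array of high scores on both sides, and the histone regions shared them with non-histone neighbours. Between blocks 2 and 3 also lay 40 tRNA gene regions, with medians of −2.09 in OPC and −2.04 in OL. Of these, 39 were called below 0 in OPC, and 32 below and 3 above in OL. All 7 non-histone regions overlapping block 2 and all 6 overlapping block 3 were below 0 in both conditions. Of all regions 71.4% in OPC and 70.9% in OL were below 0. The nearest region above 0 in both conditions before block 3 was the tRNA gene region TRNA_Ile at 240.5 kb, with 0.07 ± 0.10 and 0.70 ± 0.16. The nearest after block 3 was Dcdc2a at 1273.6 kb, with 0.88 ± 0.05 and 0.70 ± 0.07, which lay 1101.8 kb past block 4.

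Beside the smaller clusters the nearest regions above 0 lay at very unlike distances. Hist4h4 lay 10.3 kb from Gucy2c, a guanylate cyclase receptor gene with 0.90 ± 0.06 in OPC and 0.52 ± 0.06 in OL, and 56.0 kb from Mgp, the matrix Gla protein gene, with 0.32 ± 0.24 and 0.40 ± 0.13. The chromosome 11 block lay 94.9 kb from the olfactory receptor Olfr311 at 0.23 ± 0.10 and 0.29 ± 0.04. Around the chromosome 3 block 84 of 84 non-histone regions within 1000 kb were called below 0 in both conditions, and the nearest regions above 0 in both were Tdpoz5 at 2238.6 kb on one side and Zfp697 at 2099.2 kb on the other. Hist1h2al in block 5 lay 587.0 kb from Mir683-2, which scored 1.89 ± 0.25 and 1.98 ± 0.20. On its other side the nearest region above 0 in both conditions was Ctsll3 at 9583.2 kb, with 1.01 ± 0.15 and 1.17 ± 0.14.

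**Figure D4:**
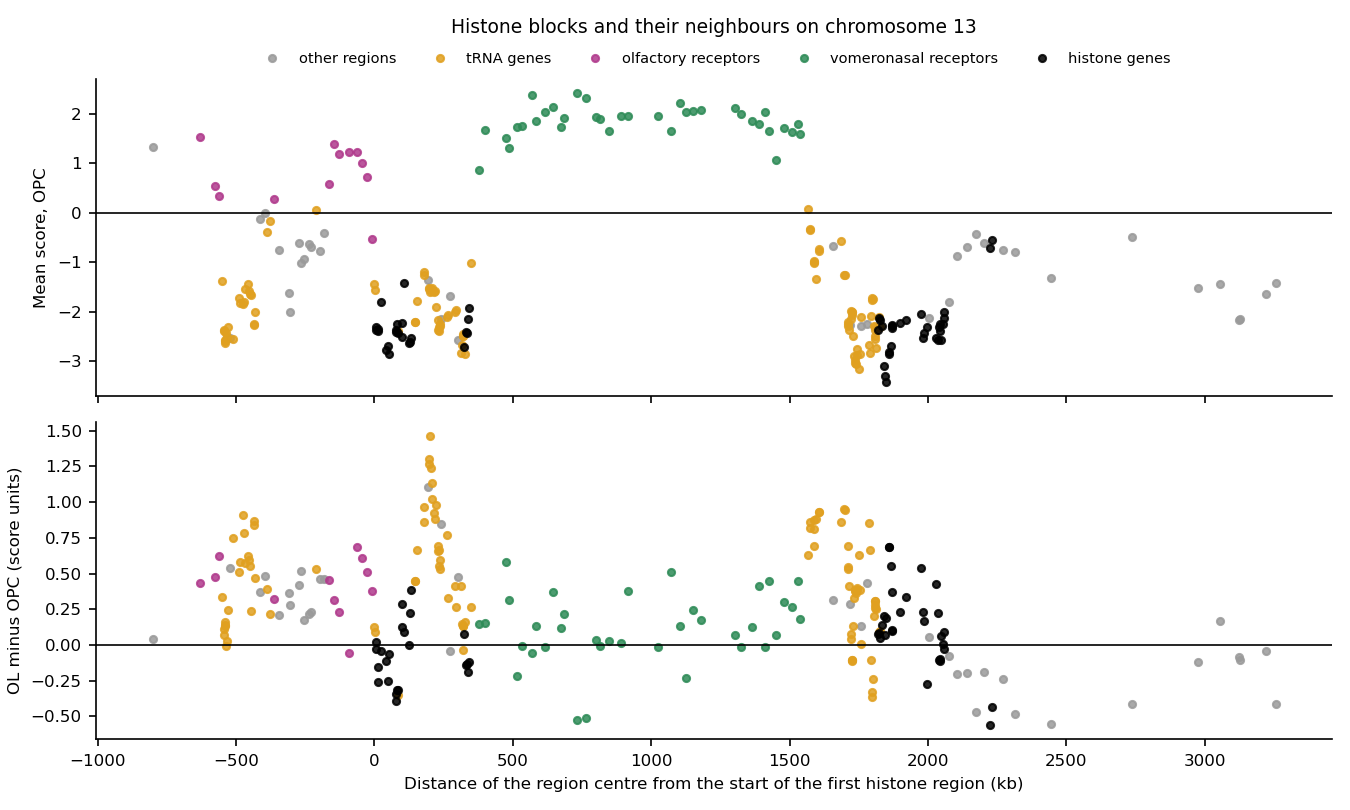
Mean score in OPC (upper panel, authors' units) and OL minus OPC (lower panel, score units) of the regions around histone blocks 1 to 4 on chromosome 13, against the distance of the region's centre from the start of the first histone region (kb). Histone regions (black) lie between −3.41 and −0.56 in the upper panel, the vomeronasal receptors between blocks 2 and 3 (green) between 0.87 and 2.42, and the highest points of the lower panel are tRNA genes (orange) between blocks 1 and 2, up to 1.46.

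Most histone regions had no called change with differentiation. Of the 67 members 7 rose in OL (10.4%) and 4 fell (5.97%) at a limma adjusted p under 0.05, where 23.0% of all regions rose and 10.9% fell. The scores of OPC and OL did not overlap in 17 members (25.4%), 10 higher and 7 lower in OL, against 48.9% of all regions. Among other regions under 14 kb 18.7% rose, 12.1% fell and 39.1% did not overlap. The standard error of a member's difference was 0.12 at the median, against 0.093 over all regions and 0.11 over the other regions under 14 kb, so a change of given size was harder to call among the members. The median change was 0.08 over the members and 0.10 over all regions.

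The called changes fell in 7 of the 16 stretches, and they differed in direction by block. Over all 21534 regions 13728 changes were positive and 7806 negative, called or not, and over the 67 members 43 and 24. In block 3, 5 members rose and 0 fell, and 23 of its 28 changes were positive, but 15 of its members form 1 overlapping stretch. In block 1, 0 rose and 2 fell, with 7 positive and 11 negative changes, and in block 2, 0 were called, with 1 positive and 4 negative changes. Both members of block 4 fell. On chromosomes 3 and 11, 1 member each rose. The difference between blocks was not tested. In 7 further members the OPC and OL scores did not overlap and yet did not pass: Hist2h3c1 (plus strand), Hist1h2be and Hist1h2bb changed by 0.28, 0.23 and 0.23, and Hist1h4k, Hist1h3i, Hist1h4i and Hist1h2ab by −0.25, −0.31, −0.19 and −0.10. Hist1h2be is the widest member region at 49.5 kb.

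The largest increases belonged to Hist1h3e, Hist1h2bg and Hist1h2ad, neighbouring genes of an H3, an H2B and an H2A whose regions overlap, so they are largely 1 measurement. Hist1h3e (chr13:23559896-23572365) scored −2.65, −2.97 and −2.91 in OPC and −2.14, −1.96 and −2.37 in OL, a rise of 0.68 ± 0.13 (SE, limma adjusted p 0.00433). Hist1h2bg (chr13:23561400-23573863) scored −2.57, −3.07 and −2.82 in OPC and −2.23, −1.89 and −2.29 in OL, a rise of 0.68 ± 0.15 (adjusted p 0.00798). Every OL library lay above every OPC library for both genes. Hist1h2ad (chr13:23564381-23578266) scored −2.49, −2.93 and −2.64 in OPC and −1.95, −2.14 and −2.33 in OL, a rise of 0.55 ± 0.13 (adjusted p 0.0133), again without overlap. The region of Hist1h4f, the lowest of all members and without a called change, ends inside that of Hist1h3e.

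Farther along block 3, the H2B gene Hist1h2bc (chr13:23674199-23686667) scored −2.09, −2.16 and −1.89 in OPC and −1.46, −1.47 and −1.59 in OL. It rose by 0.54 ± 0.09 (SE), with the smallest limma adjusted p of the members, 0.00364. Hist1h1c (chr13:23728807-23741531), a linker histone gene, scored −2.40, −2.70 and −2.48 in OPC and −1.94, −2.19 and −2.16 in OL, a rise of 0.43 ± 0.11 (adjusted p 0.0163). In both genes the conditions did not overlap. Without OPC library 9 the adjusted p of Hist1h1c was 0.0586.

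Outside chromosome 13, Hist3h2ba rose by 0.43 ± 0.10 (SE, limma adjusted p 0.0105), from the scores given above. Hist2h2ac (chr3:96218413-96230880), an H2A gene, scored −2.65, −2.68 and −2.62 in OPC and −2.12, −2.47 and −2.04 in OL, without overlap. It rose by 0.44 ± 0.11 (adjusted p 0.0175), and its adjusted p was 0.0529 without OPC library 9, 0.0517 without OL library 18 and 0.0597 without OL library 20. No other member on chromosomes 3 and 11 passed the test, and the change nearest in size was that of Hist3h2a, 0.28 ± 0.11 (adjusted p 0.0835).

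The 4 members that fell came as 2 overlapping pairs. Hist1h2aa fell by 0.56 ± 0.17 (SE, limma adjusted p 0.0309) and Hist1h2ba fell by 0.43 ± 0.15 (adjusted p 0.0487), the 2 highest members in OPC. For Hist1h2aa every OL library lay below every OPC library, and for Hist1h2ba OL library 20 at −0.81 lay above OPC library 8 at −0.84. Without any 1 of OPC libraries 8, 9 and 10 and OL libraries 19 and 20 the adjusted p of Hist1h2aa was 0.0523 to 0.0940. That of Hist1h2ba was 0.0731 to 0.146 without any 1 of OPC libraries 9 and 10 and OL libraries 18 and 19. Falls were not particular to these 2 genes in their neighbourhood. Changes were negative in 4 of 4 non-histone regions between blocks 3 and 4, with 1 called lower (limma). In the 1000 kb after block 4 they were negative in 9 of 10, with 4 called lower, where 10.9% of all regions fell. Negative changes, called or not, were 7806 of the 21534 over all regions.

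In block 1 the linker histone gene Hist1h1b (chr13:21777832-21790625) scored −2.36, −2.43 and −2.42 in OPC and −2.61, −2.77 and −3.00 in OL. The H2B gene Hist1h2bp (chr13:21777488-21791213), whose region covers nearly the same sequence, scored −2.33, −2.36 and −2.39 in OPC and −2.53, −2.69 and −2.89 in OL. Both sets were without overlap. Hist1h1b fell by 0.39 ± 0.11 (SE, limma adjusted p 0.0216) and Hist1h2bp fell by 0.34 ± 0.10 (adjusted p 0.0284). Next to them, the H2A gene Hist1h2an (chr13:21784772-21797218) scored −2.61, −2.54 and −2.15 in OPC and −2.95, −2.69 and −2.60 in OL, a change of −0.31 ± 0.14 that did not pass (adjusted p 0.108). The call on Hist1h1b was lost without any 1 of OPC libraries 8, 9 and 10 and OL library 20 (adjusted p 0.0509 to 0.0676), and that on Hist1h2bp without any 1 library but OL library 18 (0.0601 to 0.0951).

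The 4 falls became 0 without OPC library 9, 0 without OPC library 10, 1 without OL library 19 and 1 without OL library 20, whereas Hist1h3e, Hist1h2bg, Hist1h2ad, Hist1h2bc and Hist3h2ba passed in all 9 refits of the scores. Setting all libraries to the same mean and SD gave 6 rises and 9 falls (40.0% rises among the calls) and quantile normalization 6 and 8 (42.9%), against 7 and 4 (63.6%) as deposited. Over all regions the same settings moved rises from 23.0% to 15.5% under both, and falls from 10.9% to 15.1% and 15.2%. By the authors' deposited adjusted p no member passed (the lowest value was 0.0863), where 3.14% of all regions did.

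**Figure D5:**
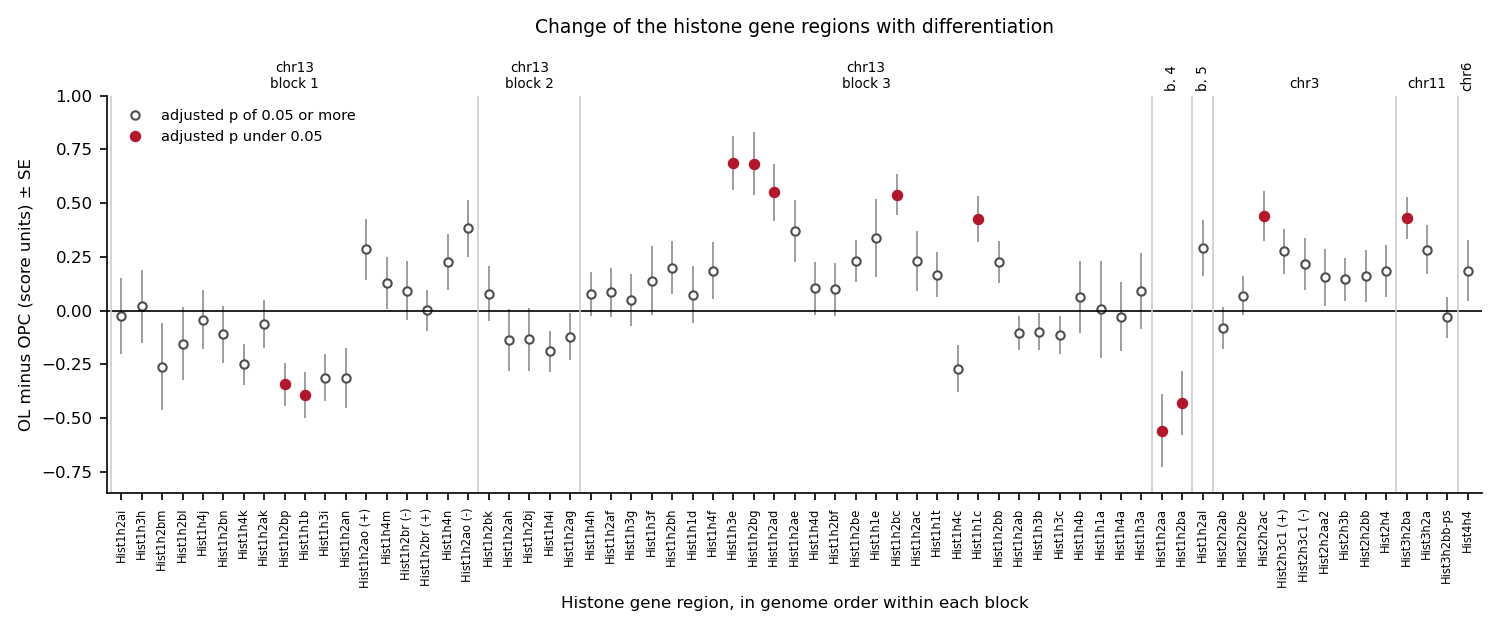
OL minus OPC (vertical axis, score units, limma estimate with its SE as bar) for each of the 67 histone regions in genome order within each block (horizontal axis). Filled points have an adjusted p under 0.05: 5 of them lie above 0 in block 3, 1 each on chromosomes 3 and 11, and 4 lie below 0 in blocks 1 and 4.

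Between blocks 1 and 2 lay 28 non-histone regions, 24 of them tRNA genes, whose scores moved differently from the histone regions beside them. Their median score was −1.93 in OPC and −1.32 in OL, and 23 of 28 rose while 0 fell (limma), against 0 rises and 2 falls among the 23 histone regions of the 2 blocks and 23.0% and 10.9% of all regions. Many of the 28 regions overlap each other, so their rises are not independent measurements. The difference between the 28 regions and the histone regions was not tested. Rises were also frequent elsewhere beside the blocks. In the 1000 kb before block 1, 31 of 51 non-histone regions rose and 0 fell. Of 40 tRNA gene regions between blocks 2 and 3, 20 rose and 1 fell. Between blocks 1 and 2 the largest rise was 1.46, for the tRNA gene region TRNA_Asp at chr13:21901313-21913384. It scored −1.42, −1.93 and −1.43 in OPC and 0.10, −0.24 and −0.26 in OL. It was also the largest rise of all 21534 regions.

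Genes that work with the clustered histone genes also lay below 0, where 71.4% of all regions did in OPC and 70.9% in OL. Of all regions 23.0% rose in OL and 10.9% fell, with a median change of 0.10. Of 11 listed histone variant genes outside the members, 11 were called below 0 in both conditions. In OL 5 of them rose and 0 fell (limma), with a median change of 0.23. H2afx, the variant phosphorylated at DNA breaks, changed most, from −2.59 ± 0.20 to −2.07 ± 0.32 (a rise of 0.52 ± 0.16 SE, adjusted p 0.0329). H3f3a, a gene for the H3 variant H3.3, had the lowest signed change, −0.06 ± 0.13 (adjusted p 0.746). H2afj, whose region overlaps that of Hist4h4, scored −2.05 ± 0.29 in OPC and −1.82 ± 0.26 in OL.

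Of 15 genes listed for histone messenger RNA, from transcription through processing to decay, 15 were below 0 in both conditions. Of these, 8 rose and 1 fell, against 23.0% and 10.9% of all regions, with a median change of 0.32. Slbp, which binds the histone stem-loop, rose by 0.57 ± 0.15 (SE), from −2.67 ± 0.28 to −2.10 ± 0.20 (limma adjusted p 0.0187). Cpsf2, a subunit of the cleavage machinery, fell by 0.57 ± 0.10 (adjusted p 0.00306). Npat, the coactivator of histone genes in the histone locus body, scored −1.08 ± 0.09 in OPC and −0.89 ± 0.11 in OL, and its change did not pass (adjusted p 0.114).

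Of 11 histone chaperone genes 11 were below 0 in both conditions, 4 rose and 0 fell. The centromeric chaperone Hjurp rose most, by 0.62 ± 0.08 (SE, limma adjusted p 0.00102), and Asf1a, a chaperone of H3 and H4, had the lowest signed change, −0.24 ± 0.15 (adjusted p 0.229). Rises were thus 5 of 11, 8 of 15 and 4 of 11 in the 3 lists. Among the clustered histone genes they were 7 of 67, and over all regions 23.0%. Falls were 0 of 11, 1 of 15 and 0 of 11, against 4 of 67 and 10.9%. Whether the lists differ from the members was not tested.

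The assay measures contact and no RNA, so the labelled cell type could not be checked on marker expression. The 3 regions of precursor markers, Pdgfra, Cspg4 and Ptprz1, were below 0 in both conditions and rose in OL (limma), and of the 4 regions of oligodendrocyte markers 4 were below 0, 1 rose and 1 fell. Of 3 neuron markers 2 were below 0 and 1 above in both conditions, with 1 rise. Of 3 astrocyte markers 2 were below 0 in OPC and 3 in OL, with 1 fall, and of 3 microglia markers 3 were below 0 in both, with 1 rise and 1 fall. Of all regions 71.4% and 70.9% were below 0, 23.0% rose and 10.9% fell. Over the 6 libraries the mean of all regions was −0.94 to −0.92 in OPC and −0.88 to −0.79 in OL, and the mean of the histone regions −2.35 to −2.33 and −2.35 to −2.18. OL library 18 was the highest for both, and without it 6 members rose and 4 fell.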

How the data were processed

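The data are DamID-seq libraries of 4 groups, of which 6 Dam-LMNB1 libraries have scores. The submitters' processing notes name cutadapt 1.9.1, BWA 0.7.17 and mm10. The sources used here do not say how the authors turned reads into the deposited score, or how the deposited p-value was made. Because 1 Dam pool serves all scores of a condition, variation among Dam libraries is missing from the p-values. No label ties libraries to cultures or animals, and the p-values measure the spread among these libraries alone, possibly technical.

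limma 3.58.1 (R 4.3.3) was fitted to the scores as deposited, over all 21534 regions in 6 libraries, with a mean for OPC and one for OL and a trended prior variance (9.418 degrees of freedom in total), and was tested on simulated data. Tests were two-sided, with Benjamini-Hochberg adjustment over all regions at 0.05. Region starts were shifted to 1-based coordinates. Named with values were the 3 lowest and 3 highest members, all members on chromosomes 6 and 11, the 5 largest changes in each direction, the extremes of each histone type, the nearest regions above 0 beside each chromosome 13 block, and the highest and lowest signed change of each list. The minus-strand Hist1h2br row, Npat, H2afj, TRNA_Asp and the neighbours of the other clusters were chosen after their values were seen. The members and lists were chosen with earlier results of these data known. Alternatives were other scalings, no variance trend, leaving out each library, 1 member per stretch of overlapping regions, medians over members and the authors' adjusted p.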

Additional observations from a re-analysis of the deposited data

How the results depend on the processing

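All 67 members stayed below 0 in both conditions under quantile normalization, without a variance trend and without each library in turn, and 16 of 16 with 1 member per stretch of overlapping regions. Rises numbered 3 with 1 member per stretch and 0 by the authors' deposited adjusted p, and 5 to 10 with 1 library left out. Falls numbered 8 after quantile normalization, 9 with equal means and SDs, 2 with 1 member per stretch, 0 by the authors' adjusted p, and 0 to 4 with 1 library left out. Fewer members enter with 1 per stretch, and the cause of the other shifts was not tested. Under each refit of the scores all 11 called members kept their sign. Chromosome 13 minus the smaller clusters was 0.290 in OPC and 0.159 in OL with 1 member per stretch, the latter opposite to the −0.085 over all members. Blocks 4 and 5 weigh more in that setting. Without Hist1h2aa, Hist1h2ba and Hist1h2al, an alternative chosen after seeing the data, the difference was −0.029 in OPC. With 1 library left out it ran from 0.030 to 0.072 in OPC and from −0.124 to −0.021 in OL. No paired analysis was possible because the OPC and OL libraries share no replicate numbers. Depth is unknown, the regions of 65 members overlap, and scores of near-identical copies are uncertain.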
